A study of Mus musculus with 4 samples.

Results

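Socs1, Socs2, Socs3, Cish and Stat3 encode the brake and a main transcription factor of the JAK-STAT pathway, and open chromatin around these 5 mouse genes was described in intestinal stem cells of the small and the large intestine. The measurement was ATAC-seq, in which the transposase Tn5 cuts and tags accessible DNA, and each library was given as 1 list of peaks on the mm10 build. Merging the peaks of the 4 libraries wherever they shared 1 bp or more gave 119965 regions. The members were chosen by gene name, with earlier results of these data known, and by position: a region counted when it lay inside one of the 5 genes or within 100 kb of it. This gave 153 regions, around 5 of 21887 protein-coding genes. The regions are themselves the peak calls, so their counts are given as a description, with no test.

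All mice were Lgr5-EGFP-IRES-creERT2 animals of 6 to 12 weeks, and no treatment was named. Lgr5 is a Wnt-responsive receptor of crypt base stem cells, and in this knock-in line EGFP marks cells that use the Lgr5 locus. The line is known to show the reporter in a patchwork of crypts, and it also carries an inducible Cre, for which the labels name no target allele. SISC, the small-intestinal stem cells, were sorted as EGFP positive and CD24 negative (2 libraries). LISC, the large-intestinal stem cells, were sorted as EGFP positive with no CD24 gate named (2 libraries). CD24 is high on Paneth cells of the small intestine, and the difference in gate and the difference in tissue cannot be told apart here. Each library started from 50000 cells and 10 PCR cycles. Whether replicates are different animals is not stated, so their spread may be technical, biological or both.

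The lists held 83443 to 93220 peaks per library, and read depth is unknown. SISC replicate 2 had 93220 peaks covering 63.3 Mb, and SISC replicate 1 had 83443 covering 49.9 Mb, so the SISC libraries differed more from each other than the LISC libraries did (91313 and 88739 peaks, 55.5 and 58.3 Mb). Regions on the Y chromosome were called in replicate 1 of each group (6 in SISC, 8 in LISC) and not in replicate 2. The Y calls thus went with replicate number in both groups, and the cause was not tested. Regions at the annotated ends of the sort markers Lgr5 and Cd24a, and of 9 of 9 epithelial markers, were called in all 4 libraries. Olfm4 and Gata4, markers of the small intestine, had such a region in the SISC libraries only, and Car1, a carbonic anhydrase of the colon, in the LISC libraries only. Of 13 immune cell markers, 4, 4, 3 and 2 had a region at a gene end in SISC replicates 1 and 2 and LISC replicates 1 and 2, and 9 had none in any library, among them Ptprc and Cd3e. Cd4 and Cd79a had such a region in all 4 libraries, Cd68 in 3 and Itgam in the SISC libraries only. Of 9 markers of stroma and endothelium, 4, 5, 4 and 2 had one. Of 3 Paneth cell markers, Mmp7 had one in all 4 libraries, Lyz1 in 3 and Defa24 in none.

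Cytokines such as interleukin-6, interleukin-22, the interferons and growth hormone bind receptors that carry Janus kinases. The kinases phosphorylate STAT proteins, which pair, enter the nucleus and bind DNA. SOCS genes are among the targets of STATs, and their proteins bind the receptors or kinases through an SH2 domain and recruit a ubiquitin ligase through a SOCS box, which closes a negative feedback loop. In the intestinal epithelium STAT3 is known for its role in repair after injury, and SOCS3 for limiting it.

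STAT dimers bind the palindrome TTCNNNGAA, so the promoters of the members are shown first, with each match on either strand in capitals. Sequences are from RefSeq on GRCm38.p6, whose coordinates are those of mm10. They run 5′ to 3′ on the strand of the gene, from 250 bases before the annotated start to 30 bases from it onward, and 4 of the 5 genes matched the promoter table. Socs2 had no entry.
Cish (chr9:107296409-107296688, plus strand): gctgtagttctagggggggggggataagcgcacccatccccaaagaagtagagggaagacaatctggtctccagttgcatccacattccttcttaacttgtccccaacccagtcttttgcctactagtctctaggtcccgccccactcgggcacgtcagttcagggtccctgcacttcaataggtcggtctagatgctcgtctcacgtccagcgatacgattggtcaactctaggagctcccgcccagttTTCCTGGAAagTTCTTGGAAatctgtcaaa
Socs3 (chr11:117969337-117969616, minus strand): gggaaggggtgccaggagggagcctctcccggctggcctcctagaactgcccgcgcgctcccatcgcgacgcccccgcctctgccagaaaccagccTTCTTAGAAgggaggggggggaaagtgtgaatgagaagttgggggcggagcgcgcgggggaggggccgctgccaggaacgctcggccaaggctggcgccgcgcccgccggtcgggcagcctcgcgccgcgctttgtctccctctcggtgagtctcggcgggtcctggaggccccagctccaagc
Socs1 (chr16:10785507-10785786, minus strand): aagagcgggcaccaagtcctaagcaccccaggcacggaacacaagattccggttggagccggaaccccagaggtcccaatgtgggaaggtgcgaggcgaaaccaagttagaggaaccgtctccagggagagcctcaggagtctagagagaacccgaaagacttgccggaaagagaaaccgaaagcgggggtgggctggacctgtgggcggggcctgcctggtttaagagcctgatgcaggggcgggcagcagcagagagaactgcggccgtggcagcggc
Stat3 (chr11:100939511-100939790, minus strand): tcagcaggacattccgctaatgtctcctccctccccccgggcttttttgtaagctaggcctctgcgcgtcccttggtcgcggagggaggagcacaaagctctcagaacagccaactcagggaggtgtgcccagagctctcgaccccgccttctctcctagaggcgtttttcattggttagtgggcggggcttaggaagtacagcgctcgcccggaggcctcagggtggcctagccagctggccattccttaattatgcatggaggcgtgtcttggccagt

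Cish, which encodes the SOCS protein CIS and is a textbook STAT5 target, held 2 matches, TTCCTGGAA beginning on the annotated start itself and TTCTTGGAA beginning 11 bases after it. Among 32851 RefSeq mouse promoters of 300 bases (250 before the start to 50 after it), 8.30% held at least 1 match and 0.457% held 2 or more. Socs3 held 1 match, TTCTTAGAA, beginning at position -154 from the start. Socs1 and Stat3 held none in this window. The wider-spaced form of this palindrome, with 1 more base between its arms, present in 6.95% of all promoters, and the TATA box TATAAA, present in 13.6%, were found in none of the 4. GATAA, the core bound by GATA factors, is in 25.4% of promoters and was found once, in Cish at position -228. CAAAG, the core bound by LEF and TCF factors, is in 53.9% and was found in Cish at -210 and 26, in Socs3 at -24 and in Stat3 at -157. All 5 patterns were searched on both strands, and no match of one overlapped a match of another in these 4 promoters. A match is a run of letters and not evidence of binding.

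The 4 promoters also differed in base composition. The Socs3 promoter was 73.3% G and C with 31 CpG dinucleotides, the Socs1 promoter 63.3% with 18, the Stat3 promoter 60.7% with 15 and the Cish promoter 53.3% with 11. The median over all 32851 promoters was 52.7% and 7. In each of the 4 libraries a peak covered the whole promoter of each of these 4 genes. Measured along the gene's strand, the peak summits in SISC replicates 1 and 2 and LISC replicates 1 and 2 lay at -24, -22, -22 and -41 bases from the Cish start. They were thus within 41 bases of the beginning of the first STAT match. The Socs1 summits lay at -30, -37, -37 and -29 and the Stat3 summits at -71, -97, -72 and -72. The Socs3 start of the promoter table lies inside the gene as annotated and not at its outer end, and the summits lay downstream of it, at 109 and 118 bases in SISC and at 62 in both LISC libraries. The Socs3 summits were thus the only ones of the 4 genes at which the SISC libraries lay to one side of both LISC libraries. In LISC replicate 2 the Socs3 region held 2 peaks, and the summit given is that of the stronger.

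**Figure D1:**
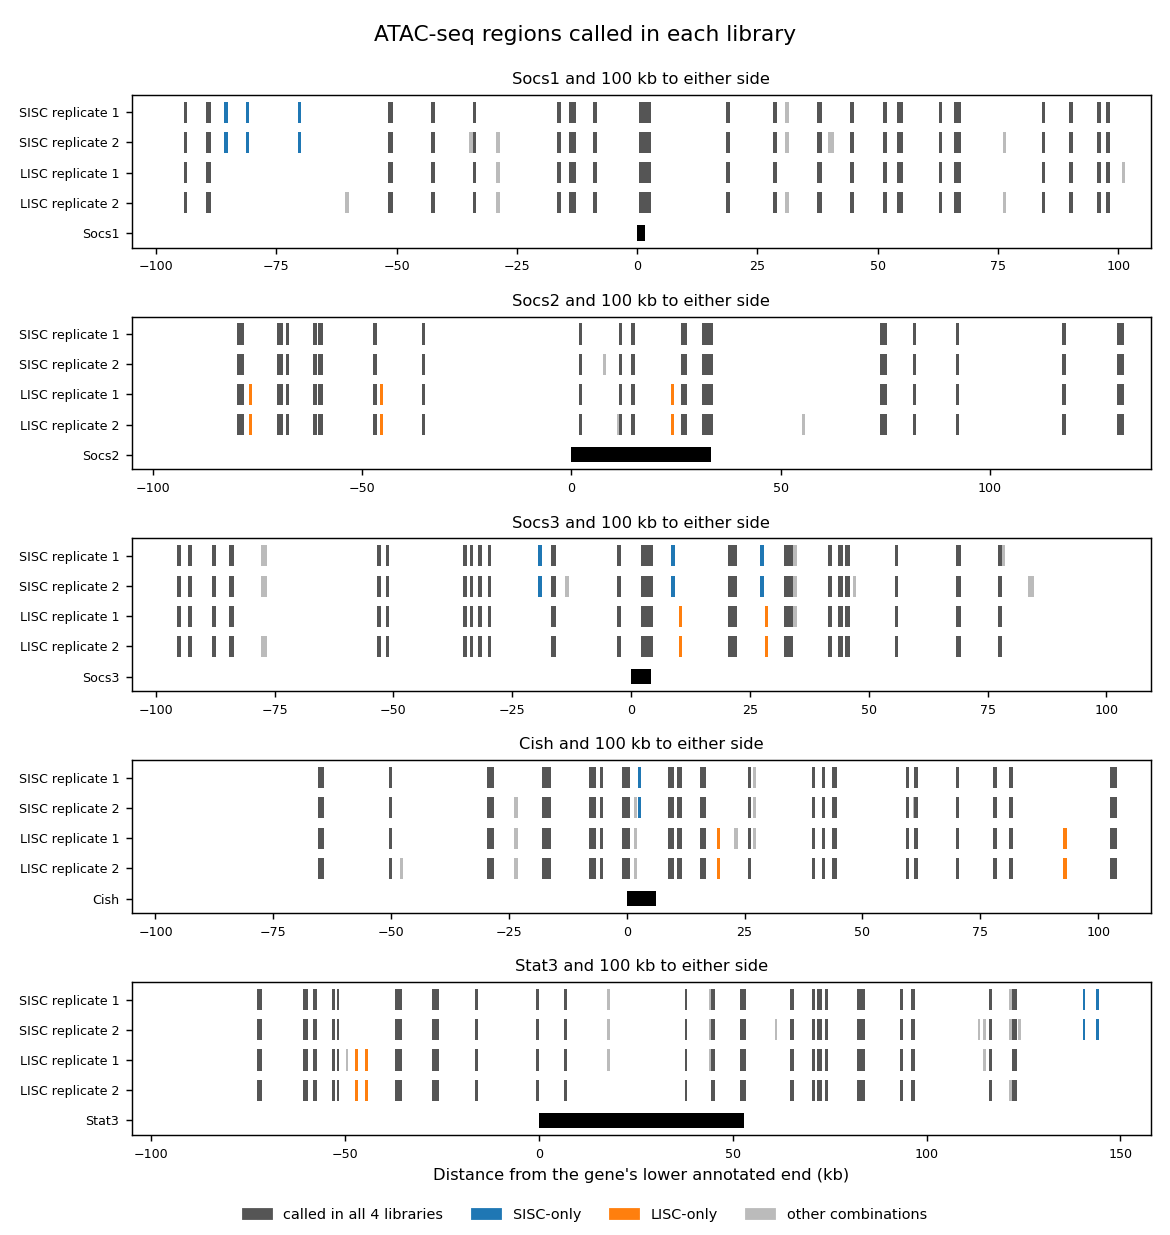
Regions called in each library around the 5 genes. Each panel has distance from the gene's lower annotated end (kb) on the x axis and 1 row per library above the gene body in black; boxes are merged regions coloured by the libraries that called them (all 4, SISC-only, LISC-only or other), and the narrowest are widened to stay visible. Most boxes are dark: 103 of the 153 regions were called in all 4 libraries.

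Around the 5 genes, most regions were shared by small- and large-intestinal stem cells. Of the 153 regions, 120 and 136 were called in SISC replicates 1 and 2 and 123 in each LISC library, or 78.4%, 88.9%, 80.4% and 80.4%. Over all regions of the genome these shares were 65.0%, 75.9%, 71.8% and 71.5%. The mean per group was 128 ± 11.3 regions in SISC and 123 ± 0 in LISC (SD, n = 2), and the groups overlapped. SISC replicate 2 stood highest both here and over all regions.

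All 4 libraries called 103 of the 153 regions (67.3%), against 48.2% of all 119965 regions. Regions termed SISC-only, with a call in each SISC library and none in LISC, numbered 9 (5.88%, against 7.96% of all regions). LISC-only regions, the converse, also numbered 9 (5.88%, against 10.2%). The remaining 32 regions (20.9%, against 33.7% of all regions) had other combinations, and 12 of these (7.84% of the 153, against 9.19% of all regions) were in SISC replicate 2 alone. Leaving out SISC replicate 1 gave 21 SISC-only regions, and leaving out LISC replicate 1 gave 14 SISC-only and 15 LISC-only regions. An absent call does not show a closed site, and fewer cells with an open site and less opening per cell cannot be told apart.

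**Figure D2:**
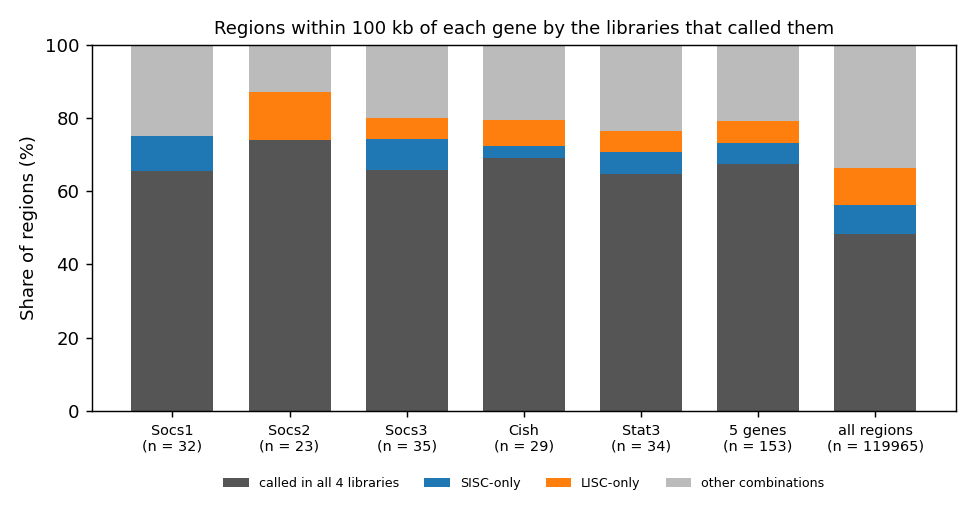
Share of regions (y axis, %) by the libraries that called them, for each gene's 100 kb window, the 5 genes together and all regions, with the number of regions under each bar. The share called in all 4 libraries is 64.7% to 73.9% at the 5 genes and 48.2% over all regions; Socs1 has no LISC-only region and Socs2 no SISC-only region.

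The genes did not differ much in the share of regions that was common to all libraries. It was 65.6% at Socs1 (21 of 32 regions), 73.9% at Socs2 (17 of 23), 65.7% at Socs3 (23 of 35), 69.0% at Cish (20 of 29) and 64.7% at Stat3 (22 of 34). The median over the 19470 protein-coding genes with a region was 53.8%, and 77.9% to 92.6% of these genes had a smaller share than each member. The windows were also well filled, since the median gene had 20 regions within 100 kb. At least 1 SISC-only region was found at 4 of the 5 genes (61.4% of all genes) and at least 1 LISC-only region at 4 of the 5 (59.1%). Socs1 and Socs3 had more SISC-only than LISC-only regions, as did 34.5% of all genes, and Socs2 and Cish had more LISC-only regions, as did 32.2%. Stat3 had 2 of each. Only the order at Socs2 and Socs3 was kept in all the alternatives: Cish had 2 SISC-only and 1 LISC-only regions with lists of equal length, and Socs1 had 0 of each within 50 kb and 1 of each with the strongest peaks.

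Most regions in the windows are nearer to another gene. The nearest protein-coding gene end belonged to the member for 38 of the 153 regions; 25 of them were shared by the 4 libraries, 3 were SISC-only and 2 LISC-only. The Socs1 window holds Clec16a, Rmi2 and the protamine genes, the Socs3 window Tha1, Pgs1 and Dnah17, and the Stat3 window Stat5a and Stat5b, the STATs next to it on chromosome 11. The window limit fell between regions that were near it on both sides at Socs1, where the farthest region inside lay 99.1 kb away and the nearest outside 104.8 kb away. At Socs2 the nearest region outside, 101.6 kb away, was SISC-only with a −log10 q of 23.2 and 25.9. At Socs3 the farthest region inside was 94.9 kb away and the nearest outside 100.3 kb, at Cish 96.5 and 148.8 kb, and at Stat3 90.8 and 113.2 kb.

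The gene ends themselves were open in both stem cell types. Each of the 5 genes had a region within 1 kb of an annotated end in all 4 libraries, as did 13594 of 21887 genes (62.1%). The strength of a peak is given below as its −log10 q, the authors' significance of the peak over local background, and as their fold enrichment. Depth sets both scales within each library, so levels are compared within a library by the share of its list that was stronger.

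Socs1 and Socs3 encode the SOCS proteins that inhibit Janus kinases directly. The region over Socs1 (gene ID 12703, minus strand, chr16:10784314-10786692, 2379 bp) covers the gene start and had a −log10 q of 237 and 227 in SISC replicates 1 and 2 and 290 and 180 in LISC replicates 1 and 2. Fold enrichment was 8.25, 6.68, 8.74 and 7.08. By standing within the list, 10.6% and 8.27% of the peaks were stronger in SISC and 7.39% and 6.22% in LISC. The region thus stood higher in both LISC lists, while the −log10 q and fold values themselves overlapped between the groups.

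The region over Socs3 (gene ID 12702, minus strand, chr11:117968263-117970649, 2387 bp) reached 283, 219, 239 and 143 by −log10 q, libraries ordered as before, with a fold of 8.19, 6.15, 7.64 and 6.18. The share of the list that was stronger was 8.22% and 8.76% in SISC and 9.85% and 9.57% in LISC. Here the region stood higher in both SISC lists, by about 1 point, while the −log10 q and fold values overlapped.

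Socs2 encodes the protein that restrains growth hormone signalling. Its region (gene ID 216233, chr10:95415209-95417743, 2535 bp) lies at the upper end of the gene, where the long non-coding RNA gene 5730420D15Rik is annotated too, so its signal cannot be given to either gene alone. The −log10 q was 222 and 224 in SISC and 194 and 122 in LISC, with a fold of 6.95, 6.15, 5.78 and 4.77. The values were higher in both SISC libraries on both scales, which depth also sets. By standing within the list, 11.5% and 8.45% of the peaks were stronger in SISC and 13.0% and 12.2% in LISC. The summit fell on the same base, 95416892, in all 4 libraries.

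The region at the Cish start (gene ID 12700, plus strand, chr9:107295588-107297415, 1828 bp) had a −log10 q of 314, 234, 271 and 174 and a fold of 9.58, 6.80, 6.84 and 6.40. Between 6.63% and 8.26% of each list was stronger, and the groups overlapped. The 4 SOCS genes thus had end regions of much the same standing, among the strongest 13.0% of peaks in every library.

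Stat3 (gene ID 20848, minus strand, 52789 bp long) stood above the SOCS genes. The region at its start (chr11:100938728-100940228, 1501 bp, shared with the long non-coding RNA gene Gm46295) had a −log10 q of 732, 512, 856 and 399 and a fold of 15.4, 12.1, 15.5 and 11.3. It was the peak of rank 133, 125, 27 and 121 in its list, with 0.158%, 0.133%, 0.0285% and 0.135% of peaks stronger. The region at the other end, where the gene stops (chr11:100886005-100886808, 804 bp), had a −log10 q of 9.90, 19.6, 5.54 and 13.5, and 63.5% to 96.4% of each list was stronger. A single gene thus held both one of the strongest regions of these libraries and one below the middle of each list.

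**Figure D3:**
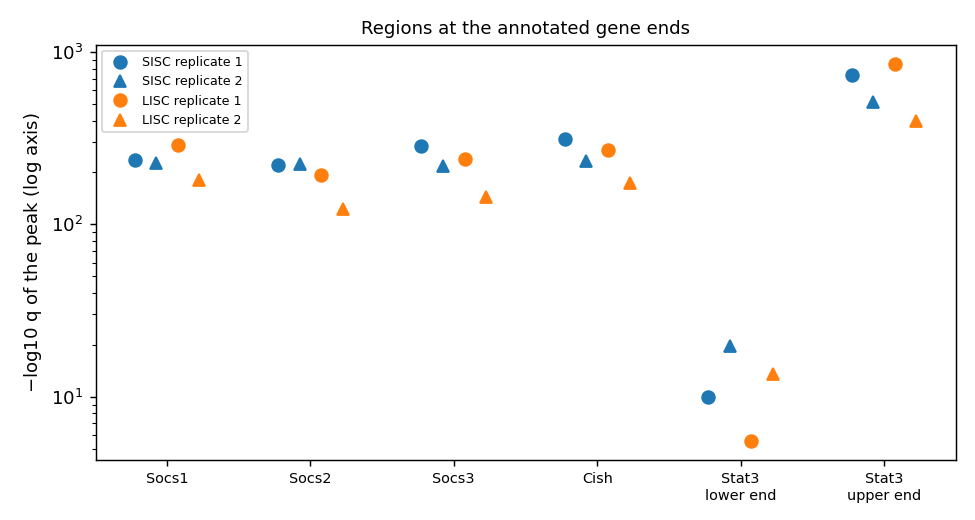
−log10 q (y axis, log scale) of the peak at each annotated gene end, 1 point per library, for the 5 genes. The Stat3 start (upper end) lies between 399 and 856, the SOCS gene ends between 122 and 314, and the Stat3 stop (lower end) between 5.54 and 19.6.

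Away from the gene ends, 2 sites near Socs3 were stronger than its own gene end in all 4 libraries. A region 31.3 kb below the gene, downstream of it on the minus strand (chr11:117933953-117934732, 780 bp), had a −log10 q of 493, 285, 434 and 246. A second, 2.09 kb below it (chr11:117963143-117963991, 849 bp), had 381, 267, 303 and 159. Neither lies in an annotated gene, and both have an end of Socs3 as their nearest gene end. At Socs1 the end region ranked first among the shared regions of its window by mean percentile. The next was 16.7 kb above it, upstream of the gene (chr16:10802240-10803054, 815 bp), with a −log10 q of 204, 198, 290 and 123 and a fold of 19.9, 16.9, 20.6 and 11.1, which is more than the fold at the Socs1 end in each library. Its nearest gene end is that of Prm1, 5.42 kb away, and not that of Socs1.

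At Socs2 the strongest shared region was not at the gene but at the end of Ube2n, which encodes a ubiquitin-conjugating enzyme, 97.0 kb away (chr10:95514287-95516019), with a −log10 q of 473, 357, 536 and 271. Inside the Socs2 body a region at chr10:95410059-95411578 was called in all 4 libraries with 171, 111, 124 and 73.9. At Cish and Stat3 the strongest shared region by mean percentile over the 4 libraries was the start region given above. In both SISC libraries, however, a region at an end of Mapkapk3, a stress kinase gene 6.57 kb below Cish (chr9:107288725-107290087), was stronger than the Cish start, with a −log10 q of 343 and 272 in SISC and 251 and 126 in LISC. Inside the Stat3 body the strongest of the other regions (chr11:100893206-100894128, 923 bp) had a −log10 q of 177 and 225 in SISC and 157 and 87.3 in LISC. The SISC libraries were the higher at this site within their lists, with a mean rank percentile of 82.5 against 73.1 among the regions that all 4 libraries called.

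The strongest of the SISC-only and LISC-only regions lay 18.6 kb below Socs3, on its downstream side (chr11:117946535-117947433, 899 bp). This SISC-only region had a −log10 q of 337 and 271 and a fold of 10.96 and 8.16 in SISC replicates 1 and 2, and no call in either LISC library. It was already known from earlier results when the genes were chosen. By mean within-list percentile (94.0) it ranked 1 among the 9555 SISC-only regions of the genome, whose median −log10 q was 13.8 and 16.8. Its summits in the SISC libraries were 10 bp apart, and its −log10 q exceeded that of the Socs3 end region in both SISC libraries. It lies in no annotated gene.

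The sites around it were called in both groups. The next region in any library began 1.90 kb above it (chr11:117949328-117950220) and was called in all 4, with a −log10 q of 131, 173, 120 and 51.3. On the other side the next lay 9.87 kb below. The region near Socs3 stayed SISC-only with the 41721 strongest peaks of each list and with lists of equal length. It also did with peaks covering 50% of a region and with summit windows. Dropping weaker peaks could not change its class, since its SISC peaks were strong and LISC had no peak there. Summit windows of 250 bp to either side could not reach the next region. Only the 50% cover could have changed the class, by removing a SISC call.

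The other 17 group-only regions had a −log10 q between 4.08 and 72.0. The strongest of them was LISC-only and lay inside Stat5b, 44.1 kb below Stat3 (chr11:100841935-100842690, 756 bp), with a −log10 q of 72.0 and 24.5 and a fold of 7.90 and 4.58 in LISC replicates 1 and 2, and its summits fell on the same base. A second LISC-only region in Stat5b (chr11:100839480-100839768) had 6.77 and 4.08. On the other side of Stat3, 2 SISC-only regions inside Atp6v0a1, a subunit gene of the vacuolar proton pump, lay 87.5 and 90.8 kb away with 4.59 and 11.3 and with 15.5 and 36.6. None of these 4 has a Stat3 end as its nearest gene end.

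The 3 SISC-only regions of the Socs1 window all lay inside Clec16a, a gene of endosomal trafficking and mitophagy, 84.9, 80.9 and 69.9 kb below Socs1. Their −log10 q was 40.3 and 33.6, 6.56 and 8.99, and 14.0 and 37.1 in SISC replicates 1 and 2. No region within 50 kb of Socs1 was SISC-only or LISC-only.

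Of the 3 LISC-only regions of the Socs2 window, 1 lay inside Socs2 itself (chr10:95407731-95408105, 375 bp), with a −log10 q of 34.4 and 12.0 in LISC replicates 1 and 2 and both summits on the same base. It sat between regions called in all 4 libraries, 8.67 kb below it and 1.95 kb above it. The others were 76.4 kb away in Cradd, with 14.5 and 12.0, and 45.4 kb away in the long non-coding RNA gene 2310039L15Rik, with 9.36 and 17.4. Socs2 had 1 SISC-only region when either SISC library was left out and 6 LISC-only regions when LISC replicate 1 was left out.

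At Socs3 the weaker group-only regions came as neighbouring pairs of opposite kind. A SISC-only region 4.19 kb above the gene (10.7 and 19.1) lay 1.05 kb from a LISC-only one (10.7 and 15.8). Inside Pgs1, a SISC-only region 22.9 kb above Socs3 (11.4 and 11.6) lay 0.690 kb from a LISC-only one (10.8 and 6.66). With SISC replicate 1 left out, Socs3 had 7 SISC-only regions in place of 3.

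Cish had 1 SISC-only region in its gene body (chr9:107298955-107299266, 312 bp), with a −log10 q of 20.0 and 43.0 and a fold of 2.53 and 3.02. It lay 0.225 kb from a region that SISC replicate 2 and both LISC libraries called (13.1, 23.7 and 15.5), so the gap between the 2 calls is narrower than either region. The LISC-only regions of the window lay 13.0 and 86.5 kb above Cish, with 5.83 and 26.0 and with 8.998 and 8.54.

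**Figure D4:**
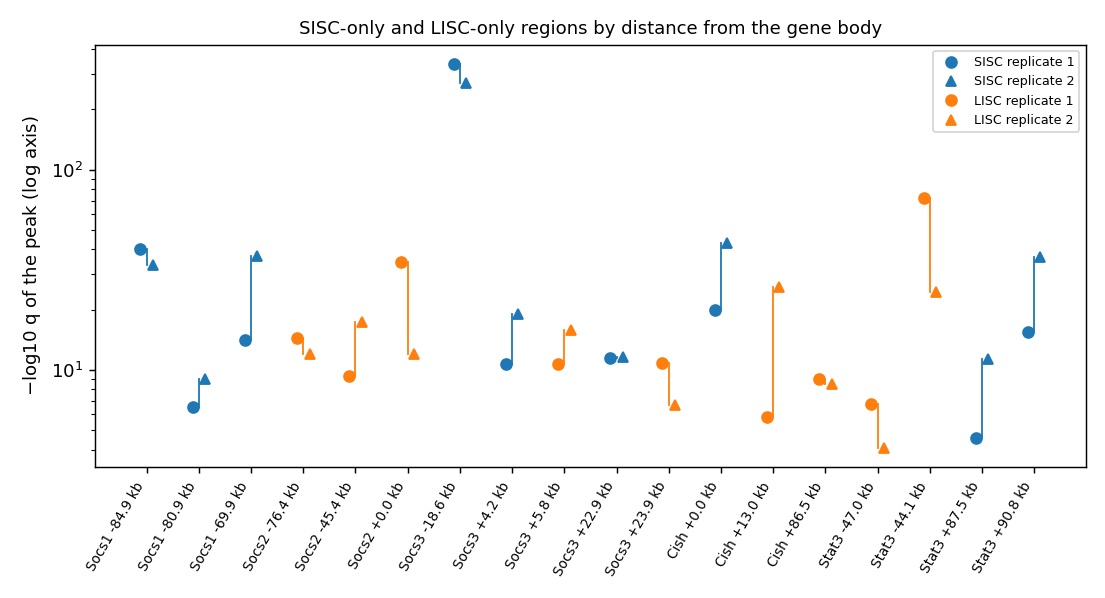
−log10 q (y axis, log scale) in both libraries of the calling group for the 9 SISC-only (blue) and 9 LISC-only (orange) regions, labelled by gene and distance from the gene body. The region 18.6 kb below Socs3, at 337 and 271, stands above all others, which lie between 4.08 and 72.0.

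A comparison of strength between tissues was possible only by rank. For this, the 57829 regions called in all 4 libraries were ranked by −log10 q within each library, as a percentile, a measure added after the data were seen. Of the 103 shared regions around the 5 genes, 33 (32.0%, against 30.4% of all shared regions) ranked higher in both SISC libraries than in both LISC libraries, and 28 (27.2%, against 25.4%) the reverse. Ranked by fold enrichment, 25 were higher in SISC (24.3%, against 26.1%) and 31 in LISC (30.1%, against 27.4%), so which group had more depended on the measure. Of these non-overlapping regions by −log10 q, the group means were at least 20 points apart for 5 regions higher in SISC (4.85%, against 8.18%) and 13 higher in LISC (12.6%, against 10.1%). The median difference, SISC minus LISC, was 1.66 points around the 5 genes and 0.72 over all shared regions.

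**Figure D5:**
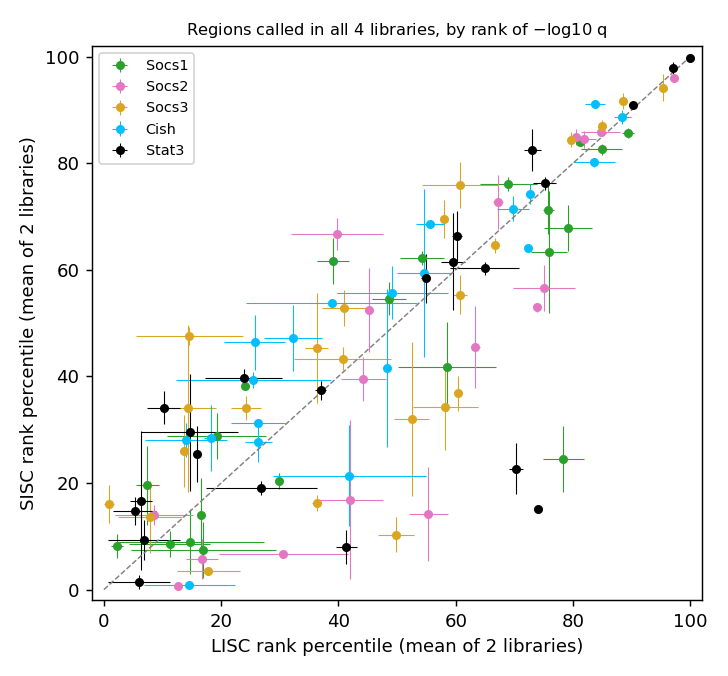
Mean rank percentile of −log10 q in SISC (y axis) against LISC (x axis) for the 103 regions called in all 4 libraries, ranked among the 57829 such regions of the genome; lines span the 2 libraries of a group and the dashed line marks equal rank. Points far below the line include a Stat3-window region at 15.1 in SISC and 74.0 in LISC and a Socs1-window region at 24.5 and 78.3.

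By gene, such regions were counted by −log10 q only, beside shares of 30.4% (SISC) and 25.4% (LISC) of all shared regions. At Socs2, 2 of 17 shared regions ranked higher in SISC and 9 in LISC, and at Cish 8 and 2 of 20. The counts were 7 and 5 of 21 at Socs1, 10 and 8 of 23 at Socs3, and 6 and 4 of 22 at Stat3. The larger count was that of LISC at Socs2 and that of SISC at the other genes. At the gene ends the differences were small: the mean percentile in SISC and LISC was 85.7 and 89.4 at Socs1, 84.9 and 80.6 at Socs2, 87.0 and 84.9 at Socs3, 88.7 and 88.4 at Cish and 99.8 and 99.9 at the Stat3 start.

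The largest differences lay at a distance. A region inside Stat5b, 59.5 kb below Stat3 (chr11:100826044-100827277, 1234 bp), had a −log10 q of 17.6 and 21.5 in SISC and 153 and 94.7 in LISC, and mean percentiles of 15.1 and 74.0. Another region inside Stat5b, 57.3 kb below Stat3 (chr11:100828476-100829510, 1035 bp), went the other way, with 33.8 and 46.7 in SISC and 12.6 and 13.5 in LISC, and percentiles of 34.1 and 10.2. The groups overlapped at neither of these neighbours.

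In the Socs1 window, a region 35.6 kb above the gene, nearest to Rmi2 (chr16:10821175-10822315, 1141 bp), had a −log10 q of 20.4 and 38.5 in SISC and 213 and 96.8 in LISC, with percentiles of 24.5 and 78.3. On the far side of Stat3, a region 63.4 kb above it near Atp6v0a1 (chr11:101003023-101003425) had 20.1 and 34.6 in SISC and 128 and 86.6 in LISC. A region 35.0 kb below Socs2, inside 2310039L15Rik (chr10:95348184-95348894), had 25.1 and 12.1 in SISC and 72.1 and 58.2 in LISC. The largest difference toward SISC was inside Dnah17, 72.8 kb above Socs3 (chr11:118043159-118044101), with 61.1 and 59.4 in SISC and 27.6 and 8.92 in LISC. Each of these sites is nearer to another protein-coding gene than to the member.

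The rest of the pathway was described from a list of 66 genes, by the same windows. Of the 66 genes, 32 had more SISC-only than LISC-only regions, 22 had more LISC-only and 12 had as many of each. Over all 21887 genes, 7547 (34.5%), 7056 (32.2%) and 7284 fell into these classes. A region at a gene end was called in all 4 libraries at 49 of the 66 and in none at 12, against 13594 (62.1%) and 7004 of all 21887 genes. The counts of each list below stand beside these same shares. Windows of neighbouring genes share regions, so the genes are not separate observations.

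The other SOCS genes, Socs4 to Socs7, had an end region in all 4 libraries at 4 of 4 genes. Socs5 had 2 SISC-only and 1 LISC-only regions, Socs6 1 and 2, and Socs4 3 and 3. The Janus kinases also had one at 4 of 4 genes. Jak2, the kinase of growth hormone and interferon gamma receptors, had 6 SISC-only and 0 LISC-only regions, Jak1, used by interleukin-6 family and interferon receptors, had 4 and 1, and Tyk2 had 1 and 3.

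Among the other STATs, 5 of 6 genes had an end region in all 4 libraries and 3 of 6 had more SISC-only regions. Stat4, the STAT of interleukin-12 signalling, had 7 SISC-only and 1 LISC-only regions. Stat5a had 0 and 2. Of 25 receptor chains, 15 had more SISC-only (34.5% of all genes) and 6 more LISC-only regions (32.2%). An end region in all 4 libraries was found at 19 (62.1% of all genes). Ifnlr1, the interferon lambda receptor chain of epithelia, had 4 and 1, and Il22ra1, the epithelial interleukin-22 receptor chain, 3 and 0. These 2 genes are neighbours on chromosome 4, and their windows share regions. Il10ra had 1 and 4. The chains with no end region in any library were Csf3r, Il20rb, Il7r, Lepr and Lifr.

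The cytokine ligands differed from the other lists at their gene ends. Of 9, only Il6 had an end region in all 4 libraries, 7 had one in none, and Lif, a ligand of the interleukin-6 family, had one in 3. By group-only regions 2 of the 9 had more SISC-only and 7 more LISC-only. Il10 had 3 SISC-only and 0 LISC-only, and Lif and Osm had 1 and 4 each, in windows that share regions. Of 8 other regulators, PIAS proteins and phosphatases, 8 had an end region in all 4 libraries. Pias4 had 3 SISC-only and 0 LISC-only regions and Pias1 1 and 4, and Pias2 had 0 and 1.

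Of 10 target genes of STATs, 8 had an end region in all 4 libraries, 5 had more SISC-only and 2 more LISC-only regions. Cdkn1a, a cell cycle inhibitor, had 5 and 1, Pim1, a survival kinase, 4 and 0, and Junb, a subunit of the factor AP-1, 3 and 0.

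The genes with the most similar pattern were found by the summed difference in the number of regions over the 15 combinations of the 4 libraries, among genes sharing no region with the member. For Socs1 they were Tyrobp with a difference of 4 regions and Arfgap2 and Fam76a with 5. For Socs2 they were Ctss with 2 and Ccdc24 and Selenow with 3. For Socs3 they were Mul1 with 3 and Cic and Mrpl52 with 4, and for Cish A930017K11Rik, Meox1 and Nhlrc4 with 2 each. For Stat3 they were Itga2b with 2 and Alox12b and Ccdc40 with 5. The measure counts regions and takes no account of their strength or position.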

How the data were processed

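The ATAC-seq data comprise 4 libraries, 2 of SISC and 2 of LISC. The submitters' processing notes name mm10, MACS2 2.2.7.1, Picard, bedtools, Bowtie2 2.3.4.1 and cutadapt 3.4. For order, settings, duplicates and any Tn5 shift, the sources used here say nothing. The authors deposited 1 peak list per library. In each list the fold enrichment (a ratio), the −log10 p and the −log10 q of a peak are the authors' deposited values, and the deposited score column was not used. Read counts were not used, so depth is unknown and its precision cannot be stated. Strength was used only to describe and rank peaks within a list.

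Peaks overlapping by 1 bp were merged, and the region class was set by the libraries with a peak in it. Genes came from RefSeq on GRCm38.p6, a table without strand; strand was taken from the promoter table. Exon and intron positions were not used here. With 2 libraries against 2, an exact test over libraries cannot go below 1 in 3, so no test was run. Counts were set beside those of all regions or genes.

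The members and gene lists were chosen with earlier results of these data known. Named were the 5 members, their end regions, group-only regions and strongest shared region, up to 3 genes per pathway list with the most net group-only regions, and the 3 genes most similar to each member. An item this rule selects is not reported here. The second strongest shared regions, the regions inside gene bodies and those that changed rank were chosen after their values were seen, as was the list of receptor chains with no end region. Alternatives were narrower windows, the nearest gene end, the strongest peaks, lists of equal length, 50% cover, summit windows of 250 bp to either side, other gene-end distances and each library left out. Python 3.11.15, numpy 2.4.6, pandas 2.3.3 and matplotlib 3.10.9 were used. Merging was checked against bedtools 2.31.1, and the counting was tested on simulated data.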

Additional observations from a re-analysis of the deposited data

How the results depend on the processing

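Of the 153 regions, 103 were shared by the 4 libraries, 9 were SISC-only and 9 were LISC-only. Within 50 kb these were 61, 4 and 7; with regions given only to the nearest gene end, 25, 3 and 2; and with the 41721 strongest peaks of each list, 50, 5 and 7, as the windows or lists were smaller by construction. With each library left out in turn the counts ran from 104 to 108, from 11 to 21 and from 9 to 15. Lists of equal length gave 94, 13 and 7, peaks covering 50% of a region 85, 10 and 11, and summit windows 101, 10 and 10, each within 1.5 times the reported count. All 50 alternatives for the gene ends, 10 per gene, kept a region in every library used. The order of SISC-only and LISC-only counts changed at Stat3, Cish and Socs1, and the cause was not tested. Stat3, equal as reported, had 0 and 2 within 50 kb, 4 and 1 with lists of equal length and 1 and 3 with the strongest peaks. It had 4 and 3 with 50% cover, 5 and 2 without SISC replicate 1 and 4 and 2 without LISC replicate 1. Cish had 2 and 1 with lists of equal length and 1 and 0 with the strongest peaks or the nearest gene end. Without SISC replicate 1, Cish had 2 and 2. Socs1 had 0 and 0 within 50 kb or by nearest gene end, and 1 and 1 with the strongest peaks. No paired analysis was made, since no test was run and the library titles give a replicate number but no pairing. Depth is unknown, so an uncalled region may be open below the calling threshold.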
